A study of Columba livia and Gallus gallus with 96 samples.

Results

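The hindlimb buds of muff and grouse pigeon embryos at stage HH25 (embryonic day 4.5) were compared as 8 RNA-seq libraries, 4 muff and 4 grouse, of the 96 libraries in the series. The members were chosen by their labels and by no measured value, though earlier results of these data were known at the time. Muff and grouse are the feather-footed phenotypes of domestic pigeon (Columba livia), and scale pigeons, with scaled feet, have the same limbs in the series. The groups used were muff, grouse and scale hindlimb at HH25, muff, grouse and scale forelimb at HH25, and muff and grouse hindlimb at HH21 (embryonic day 3.5) and HH29 (embryonic day 6), with 4 libraries each. All groups share the tissue (dissected limb buds, forelimb or hindlimb) and the library kit. The labels give a phenotype and no breed, allele, genotype or sex, and they do not say whether replicates came from separate embryos, so p-values measure the spread between these samples, which may be technical. Whole limb buds hold several cell types, so more cells of a type and more RNA per cell cannot be told apart in any level below.

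The vertebrate forelimb and hindlimb buds are told apart early by a few transcription factors: TBX5 is made in the forelimb, and PITX1 and its target TBX4 are made in the hindlimb. In domestic pigeons, feathered feet of the grouse type have been linked to a regulatory allele at PITX1, and muff birds also carry an allele at TBX5, so the hindlimb of a muff embryo can be set against that of a grouse embryo to ask what differs between 2 forms of feathered foot. SHH, FGF, BMP and WNT signals then pattern the bud along its axes before skin appendages form.

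Total counts in the 8 libraries ranged from 11693220 to 15222075, and each library detected between 16085 and 16317 features; the 10 most abundant held 4.85% to 5.73% of its counts. Libraries of replicates 3 and 4 stood apart from those of replicates 1 and 2. Between these replicate sets 1783 of 13203 features (13.5%) differed, 949 higher (7.19%) and 834 lower (6.32%) in replicates 3 and 4, so each fit below holds a term for the set. The mean log2 CPM (read counts scaled to library size) of Z-linked features was 4.56 in muff replicate 1 and 4.47 in grouse replicate 4, against 3.81 to 3.97 in the other 6 libraries, and the same replicate numbers were high in forelimb. In scale it was high in every HH25 library, at 4.54 to 4.66 in hindlimb and 4.47 to 4.6 in forelimb. Scale levels given below therefore come from libraries that also differ in Z-linked mean from most muff and grouse libraries. The hindlimb label was checked on TBX4, which had 138 to 178 CPM in the 4 muff libraries and 137 to 181 CPM in the 4 grouse libraries. Levels are CPM scaled jointly over the 24 HH25 libraries. Fold changes are on the log2 scale, muff over grouse, from edgeR's quasi-likelihood test with Benjamini-Hochberg adjustment over all features tested, and an adjusted p under 0.05 is termed a call. Most features are RefSeq transcripts, and some are sets of transcripts counted together, so several features can carry 1 gene name.

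TBX5, the T-box factor of the forelimb, was the hindlimb gene with the lowest p of all 13203 features tested. In muff hindlimb its main feature (XM_005500161.2,XM_005500160.2,XM_005500158.2) had 26.2, 23.5, 26.3 and 28.1 CPM, against 0.773, 0.882, 2.03 and 0.784 CPM in grouse hindlimb. All 4 muff libraries lay above all 4 grouse libraries. The log2 fold change was 4.52 (SE 0.22, adjusted p 2.83e-05), and the call held in all 8 fits that left out 1 library, with adjusted p between 3.82e-06 and 0.000635. Scale hindlimb averaged 1.24 ± 0.332 CPM (SD, n = 4), near the 1.12 ± 0.61 CPM of grouse hindlimb. The muff hindlimb level was 8.7% of that in muff forelimb, where TBX5 averaged 299 ± 38.6 CPM, while the grouse hindlimb level was 0.394% of that in grouse forelimb, where it averaged 284 ± 45.1 CPM (SD, n = 4 each). Forelimb TBX5 did not pass the test between muff and grouse (log2 fold change 0.08, SE 0.06, adjusted p 0.501).

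The smaller TBX5 features were too low to be tested in hindlimb. The transcript XM_005500158.2 had 43 counts over the 4 muff hindlimb libraries and 1 over the 4 grouse hindlimb libraries, a ratio of 40.8 with a 95% exact interval of 6.93 to 1650 that covers counting error only. XM_005500160.2 and XM_005500161.2 were at 0 in all grouse and scale hindlimb libraries and at 0 to 0.399 CPM in muff hindlimb libraries.

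PITX1, the homeodomain factor of the hindlimb, had 214, 171, 209 and 218 CPM in muff hindlimb and 214, 226, 254 and 234 CPM in grouse hindlimb. The groups overlapped, and the log2 fold change of −0.18 (SE 0.07, adjusted p 0.221) did not pass the test. Scale hindlimb was above both groups, at 293 ± 25.3 CPM (SD, n = 4). In forelimb, where PITX1 is low, it rose to 8.89, 8.05, 6.77 and 10.1 CPM in muff, against 3.98, 4.85, 4.47 and 3.86 CPM in grouse (log2 fold change 0.99, SE 0.16, adjusted p 0.0161). These forelimb groups did not overlap, and the scale forelimb libraries averaged 5.12 ± 1.48 CPM (SD, n = 4). TBX4, the hindlimb T-box factor, averaged 165 ± 17.8 CPM in muff hindlimb and 161 ± 22.4 CPM in grouse hindlimb (SD, n = 4 each), a difference of 0.05 log2 units that did not pass the test (SE 0.08, adjusted p 0.805).

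**Figure D1:**
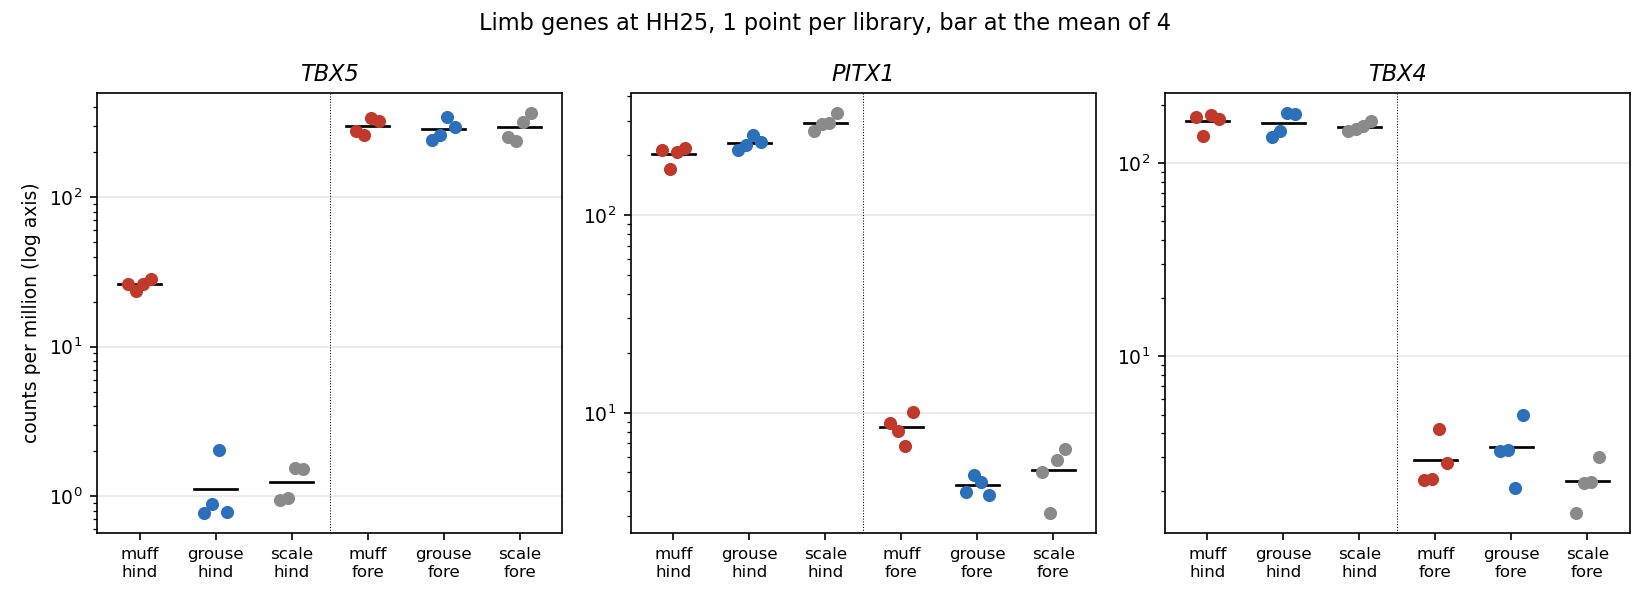
TBX5, PITX1 and TBX4 in CPM (log axis) in each HH25 library of muff, grouse and scale hindlimb and forelimb, 1 point per library with a bar at the mean of 4. TBX5 in muff hindlimb (23.5 to 28.1 CPM) lies between grouse hindlimb (0.773 to 2.03 CPM) and the forelimbs, and PITX1 in muff forelimb averages 8.46 CPM against 4.29 CPM in grouse forelimb.

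Whether the muff–grouse difference itself depended on the limb was tested as an interaction over the 16 muff and grouse libraries of both limbs. Of 13547 features tested, 3 were called (0.0221%): 2 features of TBX5, more positive in hindlimb (0.0148%), and PITX1, more negative (0.00738%). The main TBX5 feature differed between the limbs by 4.43 log2 units more in hindlimb (SE 0.18, adjusted p 9.41e-10), and XM_005500158.2 by 4.78 (SE 0.59, adjusted p 0.00342). PITX1 differed by −1.17 (SE 0.16, adjusted p 0.009), muff being below grouse in hindlimb by a margin that did not pass the test and above it in forelimb. Hindlimb and forelimb libraries of 1 phenotype and number deviated from their group means together (r between 0.47 and 0.63 across features, against −0.48 to 0.25 for other numbers), so the fit was repeated with phenotype and number as a replicate block that pairs the limbs. It called 10 features: the same 3 (PITX1 at −1.17, SE 0.13, adjusted p 0.000447), and 7 that the fit without pairing did not call. Among those 7, PDE5A, a cGMP phosphodiesterase, differed by 0.57 log2 units more in hindlimb (adjusted p 0.00131), SALL1, a spalt zinc finger factor, by 0.35 (adjusted p 0.0278), cytochrome P450 26B1, a retinoic acid-degrading enzyme, by 0.36 (adjusted p 0.035), and AMIGO2, an adhesion protein, by −0.71 (adjusted p 0.0278). RPLP0, a ribosomal protein, differed by −0.22 (adjusted p 0.0277) and LOC106146080 by −0.41 (adjusted p 0.0313). In the fit without pairing, leaving out grouse forelimb replicate 4 took PITX1 to an adjusted p of 0.0512, and the 2 TBX5 features stayed called in all 16 fits that left out 1 library. Without muff replicate 1 and grouse replicate 4 of both limbs, whose Z-linked mean was high, the main TBX5 feature alone was called, with PITX1 at 0.106 and XM_005500158.2 at 0.0585.

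With TBX5 among them, 235 of the 13203 features (1.78%) were called between muff and grouse hindlimb, 106 higher (0.803%) and 129 lower (0.977%) in muff. They carry 227 distinct names, and their median absolute log2 fold change was 0.59. The change was at least 1 log2 unit for 55 of them, 30 higher and 25 lower. The 4 muff and 4 grouse libraries did not overlap for 203 of the 235, against 7.63% of all features tested, but not overlapping is close to what the call selects. The count depended on the libraries: it was 54 without grouse replicate 1, 52 without grouse replicate 2, 93 without grouse replicate 3, 123 without muff replicate 1, 71 without muff replicate 2 and 103 without muff replicate 3, against 158 without grouse replicate 4 and 301 without muff replicate 4. Without muff replicate 1 and grouse replicate 4 together it was 106, of which 82 were among the 235. In every one of the 8 fits that left out 1 library, 40 features were called, 16 higher and 24 lower in muff, and 31 of the 235 were called in none of them.

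**Figure D2:**
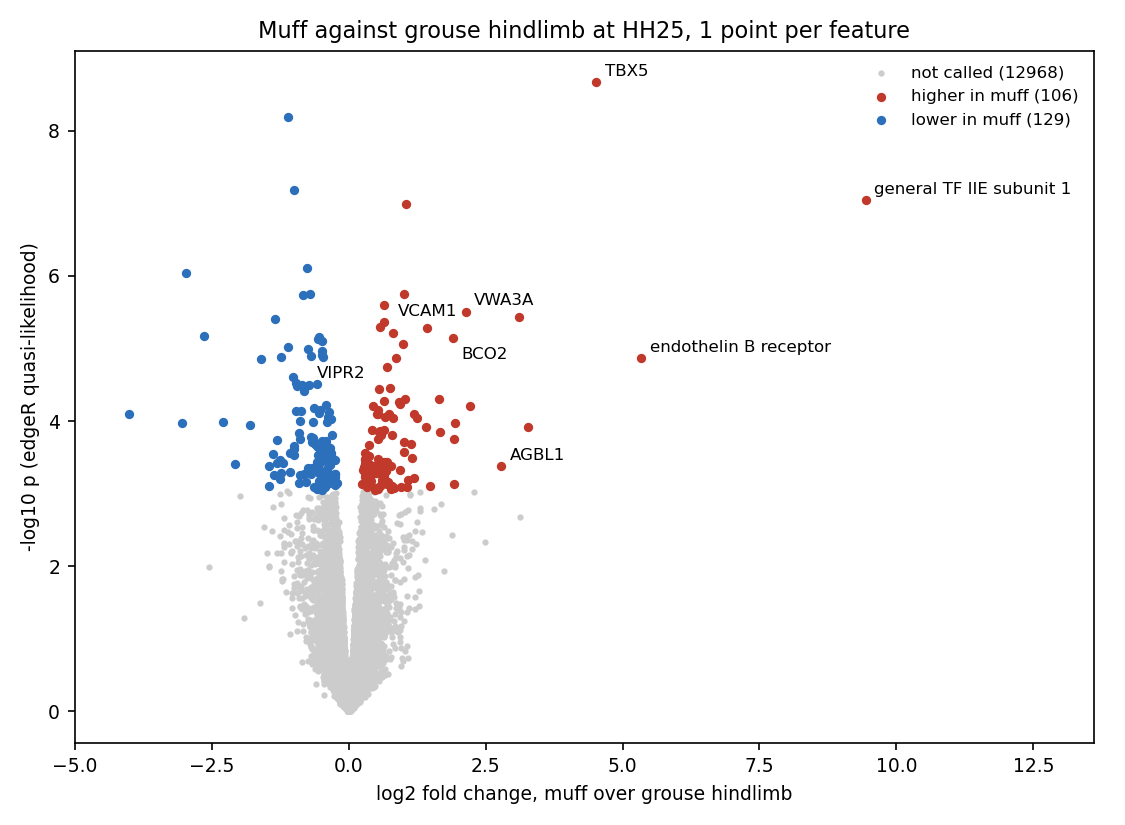
Log2 fold change of muff over grouse hindlimb against −log10 p for the 13203 features tested at HH25, with the 106 called higher in muff in red, the 129 called lower in blue and the rest in grey. TBX5 stands highest, at a log2 fold change of 4.52, and most called features lie within 1 log2 unit of 0.

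Among the features that kept their call in all 8 fits was a group with large rises in muff hindlimb. VCAM1, a cell adhesion molecule that binds integrins, had 8, 8.59, 6.06 and 6.85 CPM in muff and 2.94, 2.97, 3.04 and 2 CPM in grouse (log2 fold change 1.43, SE 0.16, adjusted p 0.00406). The groups did not overlap, but scale hindlimb spanned both, from 3.65 to 11.7 CPM. BCO2, the enzyme that cleaves carotenoids and whose skin expression sets yellow or white skin in chicken, had 15.3, 15.2, 17.3 and 16 CPM in muff and 4.56, 2, 4.56 and 6.36 CPM in grouse (log2 fold change 1.9, SE 0.22, adjusted p 0.0045). Scale hindlimb was in between, from 5.47 to 8.11 CPM. VWA3A, a protein with a von Willebrand factor A domain, had 82.7, 87.1, 29 and 25.5 CPM in muff and 12.2, 13.4, 10.7 and 9.23 CPM in grouse (log2 fold change 2.13, SE 0.23, adjusted p 0.0034). Muff replicates 1 and 2 were high and 3 and 4 were lower for VWA3A, all of them above grouse, and the ratio of means within a replicate set was 2.72 log2 units in replicates 1 and 2 and 1.45 in replicates 3 and 4.

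Falls that kept their call in all 8 fits included a glycosyltransferase and a peptide receptor. GLT1D1, a glycosyltransferase 1 domain protein, fell in both of its called features, and the transcript XM_005498274.1 had 16, 17.1, 9.49 and 12.3 CPM in muff and 30.2, 42.3, 30.8 and 34.5 CPM in grouse (log2 fold change −1.34, SE 0.15, adjusted p 0.00367). Scale hindlimb, at 29.9 to 48.4 CPM, lay with grouse for GLT1D1. VIPR2, a receptor for vasoactive intestinal peptide, had 20.2, 17.2, 20.2 and 21.1 CPM in muff and 35.1, 29.1, 30.5 and 36.1 CPM in grouse (log2 fold change −0.72, SE 0.1, adjusted p 0.0104), and it was also higher in scale hindlimb than in scale forelimb.

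The remaining largest rises with a gene symbol were AGBL1 (2.78), PTGR1 (2.21), ECI2 (1.93), C5 (1.92), CDH12 (1.66), TNFRSF4 (1.49), MASP1 (1.26) and ST6GALNAC1 (1.19), each given as a log2 fold change. Most were low: PTGR1, a prostaglandin reductase, averaged 1.33 ± 0.529 CPM in muff and 0.28 ± 0.0647 CPM in grouse (SD, n = 4 each). MASP1, a protease of the lectin pathway of complement, averaged 3.72 ± 0.414 CPM in muff and 1.57 ± 0.315 CPM in grouse, and complement component C5 averaged 0.92 ± 0.156 CPM in muff and 0.238 ± 0.0183 CPM in grouse. CDH12, a classical cadherin, was higher in muff replicates 1 and 2 (8.78 and 10.6 CPM) than in 3 and 4 (3.51 and 4.01 CPM), against 1.52 to 2.44 CPM in grouse. ECI2, an enoyl-CoA isomerase of fatty acid oxidation, rose in the feature XM_005506701.1 only: its other feature averaged 77.4 CPM in muff and 87.8 CPM in grouse (log2 fold change −0.17, adjusted p 0.138), so the sum over both gave −0.15.

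The calls of these 8 genes were lost without particular libraries. PTGR1 lost its call without grouse replicate 1, grouse replicate 2 or muff replicate 2, MASP1 also without grouse replicate 3, ECI2 without grouse replicate 1 or muff replicate 3, and CDH12 without grouse replicates 1, 2 or 3 or muff replicates 1 or 2. ST6GALNAC1 lost it without any library other than grouse replicate 4 and muff replicate 4. AGBL1 was called only without muff replicate 3, TNFRSF4 only without muff replicate 4, and C5 in none of the 7 fits that tested it. The called ECI2 feature was also higher in muff hindlimb at HH21 (2.45, adjusted p 0.0213) and HH29 (2.38, adjusted p 0.0101). MASP1 was called in the same direction at HH21 (1.08, adjusted p 0.0477) and HH29 (1.39, adjusted p 0.0148).

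Other large falls were RSPH1 (−1.79), HPSE (−1.45), a TPM3 transcript (−1.44), FABP7 (−1.39), NRIP2 (−1.35), IL17REL (−1.3), KCNE3 (−1.25), the joint GLT1D1 feature (−1.24), GTF2H5 (−1.24) and GRM7 (−1.2), as log2 fold changes. FABP7, a fatty acid-binding protein of Schwann cell precursors and glia, had 17.2, 19.3, 18.7 and 42.5 CPM in muff and 53.7, 65.5, 82.2 and 50.6 CPM in grouse. Muff replicate 4 stood above the other 3 muff libraries and still below every grouse library. HPSE, the heparanase that cuts heparan sulfate chains, averaged 1.29 ± 0.378 CPM in muff and 3.55 ± 1.02 CPM in grouse, and RSPH1, a radial spoke protein of motile cilia, averaged 0.649 ± 0.238 CPM in muff and 2.29 ± 0.416 CPM in grouse (SD, n = 4 each). GRM7, a metabotropic glutamate receptor, averaged 2.33 ± 0.971 CPM in muff and 5.24 ± 1.21 CPM in grouse. GTF2H5, a subunit of the transcription and repair factor TFIIH, averaged 8.36 ± 1.82 CPM in muff and 20.4 ± 7.07 CPM in grouse. Of these, the joint GLT1D1 feature was called in all 8 fits, RSPH1 lost its call without grouse replicates 1, 2 or 3 or muff replicate 2, GTF2H5 without grouse replicates 1, 2 or 4 or muff replicates 1 or 2, FABP7, GRM7 and IL17REL without any library other than grouse replicate 4 and muff replicate 4, and NRIP2 without any other than grouse replicate 4 and muff replicate 3. HPSE was called only without muff replicate 1, KCNE3 only without grouse replicate 4, and TPM3 in none of the 7 fits that tested it.

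**Figure D3:**
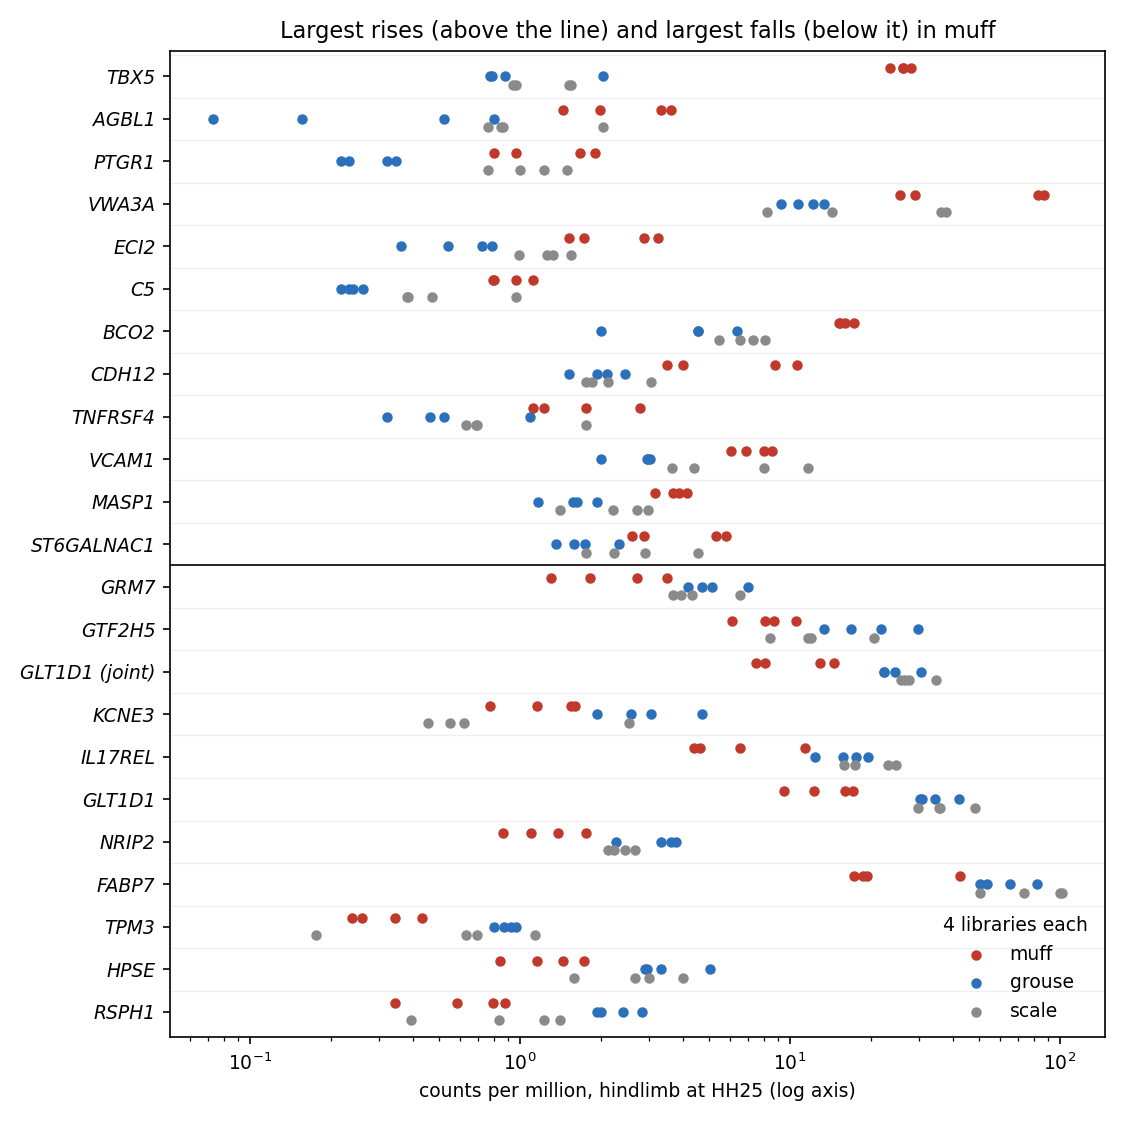
CPM (log axis) in the HH25 hindlimb libraries for the 12 largest rises with a gene symbol among called features and the largest falls named in the text, with 4 points each for muff, grouse and scale. Muff points lie to the right of all grouse points above the line and to the left below it, as the choice of genes requires, and scale points fall on either side.

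Several features that carry a protein name in place of a symbol changed by more than any of these genes apart from TBX5. The feature named general transcription factor IIE subunit 1 had 14.3, 17, 12.3 and 37.2 CPM in muff hindlimb, against 0 in grouse replicates 1 to 3 and 0.0871 CPM in replicate 4. Muff held 1131 counts and grouse 1, a ratio of 1070 with a 95% exact interval of 192 to 42400 that covers counting error only, and the call held in all 8 fits (adjusted p 0.00027 with all libraries). Forelimb was split alike, with 840 counts in muff and 2 in grouse, and scale replicate 4 had 26.9 CPM in hindlimb and 23.1 CPM in forelimb while the other scale libraries had at most 0.176 CPM. In the authors' deposited table the log2 fold change of this feature was 0.08 with an adjusted p of 0.27. The shrinkage of those fold changes is not stated, so their size cannot be set directly against the ratio here. The feature named endothelin B receptor, a receptor for endothelin peptides, had 145, 65.7, 8.14 and 7.56 CPM in muff and 0.696, 1.2, 1.45 and 0.871 CPM in grouse (log2 fold change 5.34, SE 0.67, adjusted p 0.00543). Muff replicates 1 and 2 were high and 3 and 4 low, all above grouse, and its call was lost without grouse replicate 2 (adjusted p 0.0554). The feature named histidine--tRNA ligase, cytoplasmic-like was at 5 counts over the muff libraries and 83 over the grouse libraries (log2 fold change −4, SE 0.62, adjusted p 0.0167), and it lost its call without grouse replicate 2 or muff replicate 2. This feature was also called lower in muff hindlimb at HH21 (−3.86, adjusted p 0.0121) and HH29 (−5.4, adjusted p 0.00217). Of the rest, L-lactate dehydrogenase B chain-like (3.11) and histamine H3 receptor (−2.97) kept their call in all 8 fits. Disintegrin and metalloproteinase domain-containing protein 32 (3.28) kept it in 3 of the 8. Of the 2 called cytochrome P450 2J2 features, the one with the larger fall (−3.04) kept it in 4 of the 8.

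Scale hindlimb levels of the called features were set beside those of muff and grouse, as a description with no test. The Z-linked mean was high in every scale hindlimb library but only in muff replicate 1 and grouse replicate 4. Among the 106 features higher in muff, the scale mean was nearer to grouse for 59 and nearer to muff for 47. Among the 129 lower in muff, it was nearer to grouse for 86 and nearer to muff for 43, and it lay above both groups for 30.

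The limb genes were described next as lists, with the median over the 13203 features tested, 0.006 log2 units, as the background. Of 13 limb identity features tested, TBX5 rose and the other 12 were not called, with HOXC11, a hindlimb HOX gene, at 34.9 CPM in muff and 40.9 CPM in grouse (−0.22, adjusted p 0.144). The HOX genes, which place cells along the body and limb axes, had a median of 0.14 over 28 features, 20 of them above 0, and 1 call (3.57%). HOXA5, an anterior HOX gene, rose to 88.3, 88.3, 78.9 and 72.5 CPM in muff, against 63.5, 64.9, 65.6 and 59.7 CPM in grouse (0.37, SE 0.07, adjusted p 0.0278). The groups did not overlap, and only the fits without grouse replicate 3 or muff replicate 4 kept the call. HOXA6, its neighbour in the cluster, averaged 54.1 CPM in muff and 44.2 CPM in grouse (0.3, adjusted p 0.0527).

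The genes that differ between the limbs of scale pigeons give another view of limb identity, since the scale libraries chose them and took no part in the muff–grouse test. Between scale hindlimb and scale forelimb 385 of 13338 features were called (2.89%), 169 higher (1.27%) and 216 lower (1.62%) in hindlimb, and those past 1 log2 unit make the lists. Of 39 forelimb-biased features tested, 2 rose in muff hindlimb (5.13%), TBX5 and endothelin B receptor, and the list's median was 0.14 with 24 above 0. The 5 at p under 0.05 in the other direction were lower in muff, among them GFRA4, a GDNF family receptor, at 8.64 CPM in muff and 13.3 CPM in grouse (−0.61, adjusted p 0.072). Of 39 hindlimb-biased features, VIPR2 fell in muff hindlimb (2.56%), and the median was −0.15 with 12 above 0. TAGLN3 averaged 2.22 CPM in muff and 4.95 CPM in grouse (−1.17, adjusted p 0.0728), SIM1 3.27 CPM in muff and 5.49 CPM in grouse (−0.74, adjusted p 0.153), and OSR1, an odd-skipped factor, 36.5 CPM in muff and 46.4 CPM in grouse (−0.33, adjusted p 0.137). PITX1 is 1 of these 39. At p under 0.05, 7 of the 39 were lower and 2 higher, the higher ones being TRPM6, an ion channel, at 0.947 CPM in muff and 0.578 CPM in grouse (0.73, adjusted p 0.232), and LOC102089131, at 2.67 CPM in muff and 1.65 CPM in grouse (0.71, adjusted p 0.236).

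Of the proximal and anterior factors, IRX2, an Iroquois homeobox gene, fell to 4.99, 6.35, 5.34 and 4.78 CPM in muff, against 10.7, 9.7, 7.75 and 7.14 CPM in grouse (−0.69, SE 0.14, adjusted p 0.0401), 1 call in 26 features (3.85%). The groups did not overlap, but the call was lost in all 8 fits that left out 1 library. IRX1 averaged 2.2 CPM in muff and 5.25 CPM in grouse (−1.31, adjusted p 0.119), and SALL1 172 CPM in muff and 139 CPM in grouse (0.31, adjusted p 0.0688).

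Tendon and matrix genes were lower in muff where they were called. KERA (keratocan), a small leucine-rich proteoglycan of connective tissue matrix, had 200, 189, 153 and 172 CPM in muff and 251, 237, 211 and 217 CPM in grouse (−0.35, SE 0.05, adjusted p 0.0167). LUM (lumican), a proteoglycan of the same family, averaged 587 ± 53.3 CPM in muff and 686 ± 46.4 CPM in grouse (SD, n = 4 each; −0.22, SE 0.05, adjusted p 0.0456). They were 2 calls in 25 tendon and joint features (8%), whose median was −0.13. KERA lost its call without grouse replicates 1 or 2 or muff replicate 2, and LUM lost it in all 8 fits. None of 20 cartilage and bone features was called by edgeR, with 2 higher and 2 lower at p under 0.05 and 1 lower by DESeq2. Their median was −0.22, −0.42 without muff replicate 1 and grouse replicate 4, and −0.05 without grouse replicate 3, whose summed level of 2380 CPM was the highest of the 8 libraries. At p under 0.05, MATN3 (0.83, adjusted p 0.213) and SPP1 (0.7, adjusted p 0.25) were the higher features. MATN4 (−0.4, adjusted p 0.171) and COL9A3 (−0.43, adjusted p 0.216) were the lower ones. COL2A1, the fibrillar collagen of cartilage, averaged 249 CPM in muff and 323 CPM in grouse (−0.32, adjusted p 0.379).

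The hedgehog, FGF, BMP and TGF-beta, WNT and feather placode lists gave no called feature with edgeR. Over all 13203 features, 1185 (8.98%) were higher and 1117 (8.46%) lower at p under 0.05, the background for the counts at that p in each list. The hedgehog list held 15 features, of which 4 were higher and 0 lower in muff at p under 0.05, with none by DESeq2. SHH, the signal of the posterior bud margin, had 3.1, 3.82, 1.99 and 1.03 CPM in muff and 1.86, 1.52, 0.29 and 1.57 CPM in grouse (0.92, SE 0.38, adjusted p 0.247), and the groups overlapped. At HH21 SHH went the other way without passing the test (−0.69, SE 0.21, adjusted p 0.139). Its transcriptional target GLI1 averaged 27.8 CPM in muff and 23.4 CPM in grouse at HH25 (0.26, adjusted p 0.236). HAND2, the list member of lowest p, averaged 222 ± 13.2 CPM in muff and 196 ± 2.03 CPM in grouse (SD, n = 4 each; 0.19, SE 0.05, adjusted p 0.113). In the FGF list of 29 features, 3 were higher and 2 lower at p under 0.05, and DESeq2 called 1 in each direction. DUSP6, a phosphatase induced by FGF signalling, had 148, 150, 158 and 138 CPM in muff and 116, 111, 116 and 135 CPM in grouse (0.33, SE 0.07, adjusted p 0.0527). FGFR3, an FGF receptor, averaged 33.9 ± 3.2 CPM in muff and 46.2 ± 5.25 CPM in grouse (SD, n = 4 each; −0.44, SE 0.1, adjusted p 0.0674). Both pairs of groups were apart without passing the test.

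In the BMP and TGF-beta list of 36 features, 3 were higher and 6 lower at p under 0.05, with none by DESeq2, and BMP7 averaged 99.5 ± 6.91 CPM in muff and 83.3 ± 4.5 CPM in grouse (SD, n = 4 each; 0.27, SE 0.07, adjusted p 0.0902). The WNT list of 33 features had 2 higher and 3 lower at p under 0.05, and the feather placode list of 27 had 3 higher and 1 lower, both with none by DESeq2. LEF1, a WNT effector on both lists, averaged 89.5 CPM in muff and 81.2 CPM in grouse (0.15, adjusted p 0.223). IRS1, the adaptor of insulin and IGF receptors, was the 1 call among 16 features of the IGF list (6.25%). It had 28, 23.5, 28.1 and 33.7 CPM in muff and 35.7, 37.8, 53.3 and 43.6 CPM in grouse (−0.58, SE 0.1, adjusted p 0.0279), with no overlap, and scale hindlimb, at 22.5 to 28.8 CPM, lay with muff. The IRS1 call was lost without grouse replicates 1, 2 or 3 or muff replicates 2 or 3.

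Of the lists, 21 held no call. They cover signalling pathways, metabolism and markers of other cell types (muscle, endothelium, ectoderm, neurons, macrophages and red blood cells). Of their 415 features, 28 (6.75%) were higher and 25 (6.02%) lower at p under 0.05 with edgeR, below the shares over all features, and DESeq2 called 1 higher and 3 lower. A few features are on more than 1 list. The neural crest and Schwann list had FABP7 as its 1 call in 10 features (10%). It summed to 83.1 to 119 CPM in muff and 135 to 163 CPM in grouse. FABP7 is a large part of these sums, so they are not a separate measure of the other members. Of its other members, SOX10, the crest factor, averaged 8.6 CPM in muff and 11.6 CPM in grouse (−0.41, adjusted p 0.109), and EDNRB 13.9 CPM in muff and 20.5 CPM in grouse (−0.54, adjusted p 0.0558). PMEL, a pigment cell protein, went the other way, at 3.6 CPM in muff and 2.47 CPM in grouse (0.56, adjusted p 0.111). The feature named endothelin B receptor, which rose by 5.34 log2 units, carries no symbol and is not on this list. In all, 3 of the 10 list members were above 0, with 2 higher and 3 lower at p under 0.05. The part of these cells in the FABP7 difference was not tested. Muscle genes summed to 595 to 1450 CPM in muff and 486 to 1320 CPM in grouse, with muff replicate 4 and grouse replicate 3 high. Red blood cell genes summed to 348 to 1310 CPM in muff and 180 to 878 CPM in grouse, and all 3 were above 0 and not called, with a median of 0.75.

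MKI67, a marker of cycling cells, rose to 595, 554, 595 and 418 CPM in muff, against 441, 457, 331 and 342 CPM in grouse (0.48, SE 0.1, adjusted p 0.0494), the 1 call in 47 cell cycle features (2.13%), whose median was 0.05, with 9 higher and 2 lower at p under 0.05. The groups overlapped, and only the fits without muff replicate 3 or 4 kept the call. Among 66 cytosolic ribosomal protein features, 3 fell (4.55%), RPS2, RPS24 and RPL10A, with log2 fold changes of −0.24, −0.25 and −0.24 (adjusted p 0.0401, 0.0411 and 0.0465). In all, 63 of the 66 were below 0 and 31 were lower at p under 0.05, against 0 higher, but the median was small, at −0.12, and the summed levels overlapped, with 63500 to 69800 CPM in muff and 66400 to 78800 CPM in grouse. The ribosomal median was −0.12 as well in separate fits, with DESeq2's size factors and with no term for the replicate set. Without that term edgeR called 0 of the 66, with 10 lower at p under 0.05, and DESeq2 with the term called 7. Over all 13203 features these fits called 74 and 451.

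**Figure D4:**
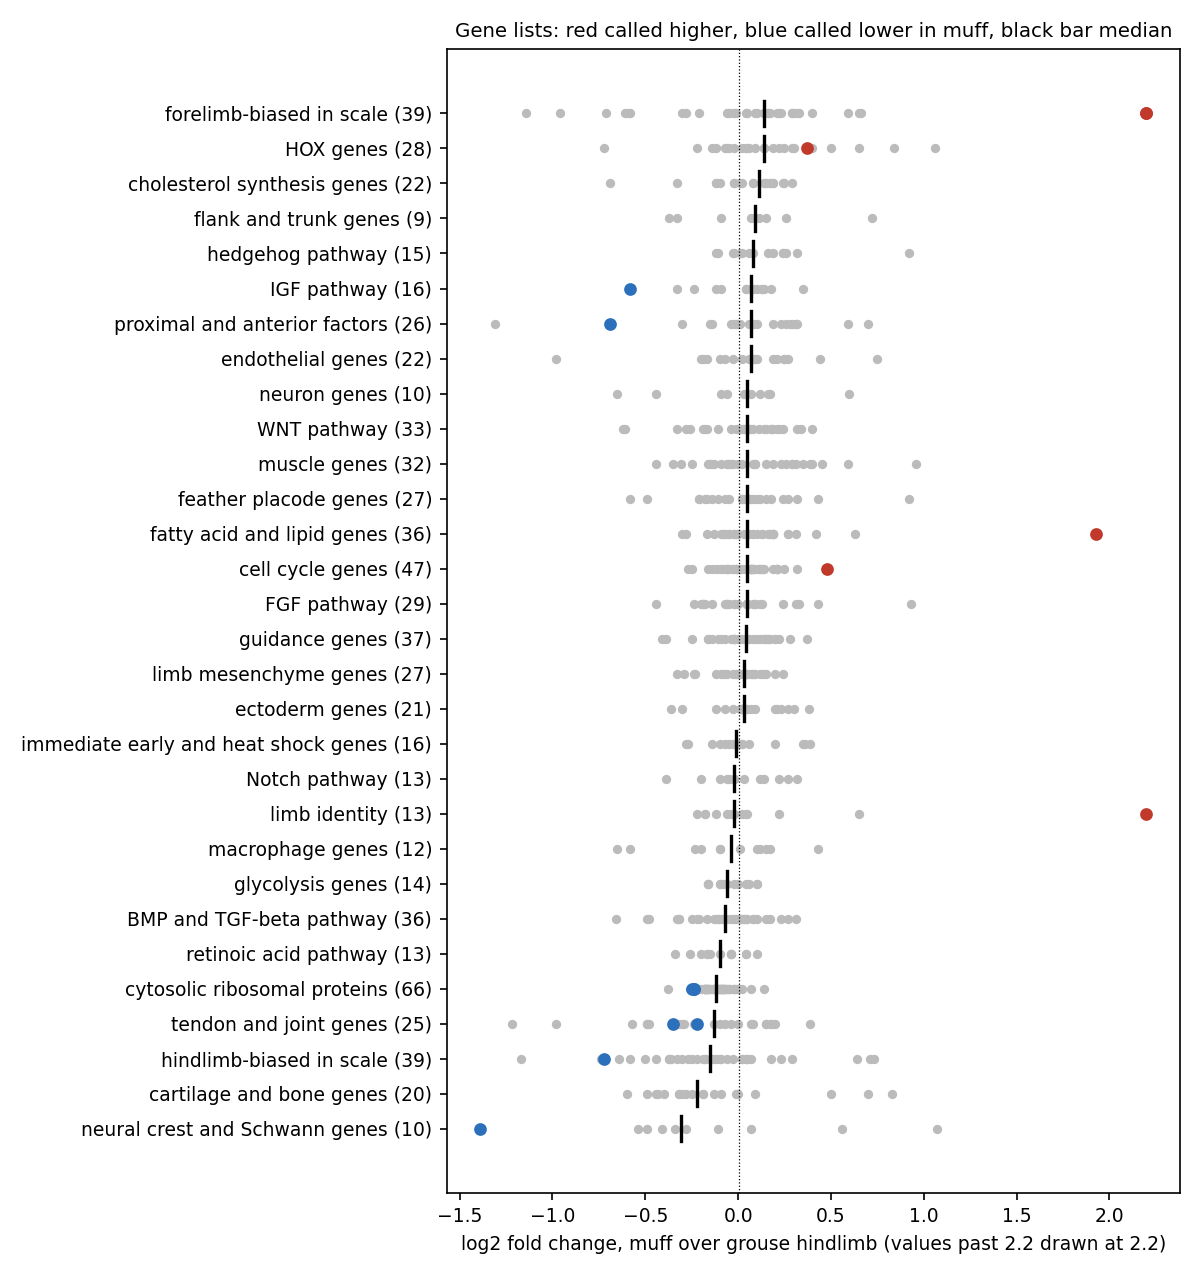
Log2 fold change of muff over grouse hindlimb for the features of each list with at least 9 tested, 1 point per feature, with the median as a black bar and the number tested in brackets. Medians run from −0.31 (neural crest and Schwann genes) to 0.14 (HOX genes and forelimb-biased genes) around a median of 0.006 for all features (dotted line), few points are coloured as called, and changes past the right edge are drawn at the edge.

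Whether the neighbours of the limb genes differed was looked at for the 10 protein-coding genes on each side of TBX5 and of PITX1 in the RefSeq gene order of assembly bColLiv1.pat.W.v2, a span chosen after the values were seen. Of 14 tested genes around TBX5, none was called by edgeR or DESeq2, with 3 features higher and 2 lower at p under 0.05 and log2 fold changes between −0.48 and 0.26. TBX3, the T-box gene beside TBX5, averaged 117 ± 14.9 CPM in muff and 108 ± 7.05 CPM in grouse, and RBM19, on the other side, 116 ± 4.53 CPM in muff and 101 ± 5.45 CPM in grouse (SD, n = 4 each). Of 15 tested genes around PITX1, none was called by edgeR and 1 feature by DESeq2, with 4 features higher and 1 lower at p under 0.05. CXCL14, a chemokine gene there, had 180, 226, 214 and 255 CPM in muff and 163, 184, 169 and 167 CPM in grouse (0.37, adjusted p 0.0902).

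The same contrast in forelimb asked which differences were shared by both limbs of the embryos. There 334 of 13185 features were called (2.53%), 180 higher (1.37%) and 154 lower (1.17%) in muff. Of the 235 hindlimb calls, 232 were tested in forelimb, 229 had the same sign and 152 (65.5%) were called in the same direction, with 0 called in the other. The median forelimb change of the 232, taken in the hindlimb direction, was 0.56, against 0.59 in hindlimb. Hindlimb and forelimb libraries of 1 number had nearly the same Z-linked mean and may come from the same embryo, so the limbs are not independent tests. The forelimb count was 104 without grouse replicate 1, 107 without grouse replicate 2 and 173 without grouse replicate 3. It was 198 without muff replicate 1, 137 without muff replicate 2, 156 without muff replicate 3 and 158 without muff replicate 4. Without grouse replicate 4 it was 306, the highest of these counts.

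Apart from TBX5, the interaction called none of the 235, with or without the pairing of limbs, so the following are values of genes called in hindlimb and not a tested difference between limbs. IL17REL, a receptor-like gene, averaged 6.74 CPM in muff hindlimb and 16.3 CPM in grouse hindlimb, against 19.1 CPM in muff forelimb and 21.6 CPM in grouse forelimb (forelimb log2 fold change −0.17, adjusted p 0.647). HOXA5 had a forelimb log2 fold change of 0.09 (adjusted p 0.5), KERA of −0.01 (adjusted p 0.972) and LUM of −0.01 (adjusted p 0.963). FABP7, by contrast, was called in forelimb (−1.33, adjusted p 0.00388), as were IRS1 (−0.62, adjusted p 0.00636), VCAM1 (1.85, adjusted p 0.00345) and BCO2 (1.84, adjusted p 0.00242).

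**Figure D5:**
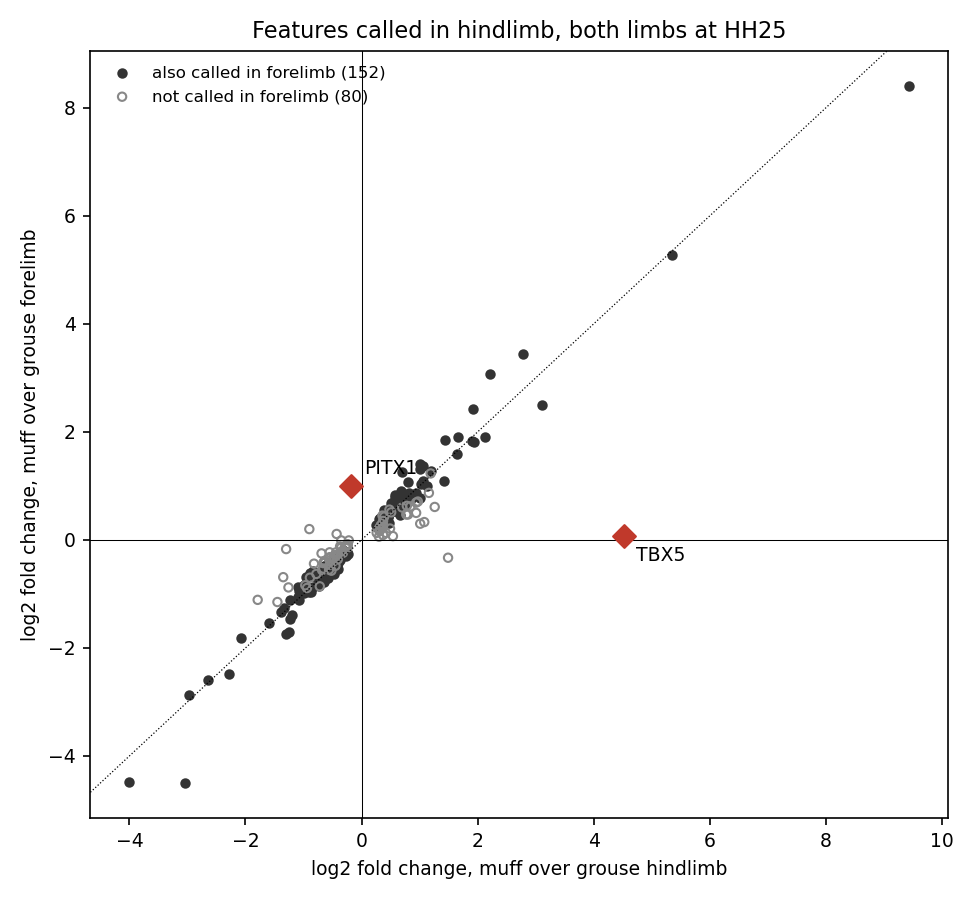
Log2 fold change of muff over grouse in hindlimb (x) and forelimb (y) at HH25 for the called hindlimb features tested in both limbs, filled where also called in forelimb (152) and open where not, with PITX1 added. Most points lie along the dotted line of equal change, and TBX5 (4.52 in hindlimb, 0.08 in forelimb) lies far to its right.

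At HH21 the hindlimb contrast called 128 of 12891 features (0.993%), 56 higher (0.434%) and 72 lower (0.559%) in muff. At HH29 it called 279 of 13628 (2.05%), 164 higher (1.2%) and 115 lower (0.844%) in muff. Of the 235 features, 227 were tested at HH21, where 212 had the same sign and 51 (22.5%) were called in the same direction, and 231 at HH29, where 209 had the same sign and 71 (30.7%) were called in the same direction. None was called in the other direction at either stage, and 27 were called in the same direction at all 3 stages. The HH21 count was 33 without grouse replicate 2, 3 without grouse replicate 3 and 33 without grouse replicate 4. It was 39 without muff replicate 1, 31 without muff replicate 2, 25 without muff replicate 3 and 4 without muff replicate 4. Without grouse replicate 1 it rose to 187. The HH29 count was 49 without grouse replicate 1, 18 without grouse replicate 3 and 65 without grouse replicate 4. It was 158 without muff replicate 1 and 65 without muff replicate 3, and it rose to 353 without muff replicate 2.

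TBX5 was higher in muff hindlimb at each stage, with CPM here scaled within a stage. At HH21 it had 1.21, 4.03, 2.15 and 2.64 CPM in muff and 0.0756 to 0.135 CPM in grouse (difference 4.64 log2 units, SE 0.55, adjusted p 0.0121). At HH29 it had 29.3, 59.4, 40 and 64.9 CPM in muff and 3.08, 3.76, 3.2 and 4.33 CPM in grouse (log2 fold change 3.75, SE 0.26, adjusted p 0.000236). PITX1 fell at HH21 to 120 ± 24.4 CPM in muff, against 158 ± 27.7 CPM in grouse (SD, n = 4 each; log2 fold change −0.41, SE 0.07, adjusted p 0.0327), a fit that compares within replicate sets, since the raw groups overlap. Whether this PITX1 call holds with a library left out was not examined, and the HH21 count fell to as few as 3 that way. At HH29 it averaged 246 ± 26.1 CPM in muff and 251 ± 9.56 CPM in grouse (−0.02, adjusted p 0.907).

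Of the other features called at all 3 stages, the feature named general transcription factor IIE subunit 1 had 12.7 to 38.8 CPM in muff and 0 in every grouse library at HH21, and 8.46 to 27.1 CPM in muff and at most 0.081 CPM in grouse at HH29. VWA3A averaged 45.2 CPM in muff and 12.4 CPM in grouse at HH21, and 70.6 CPM in muff and 20.4 CPM in grouse at HH29. GLT1D1 (XM_005498274.1) averaged 13 CPM in muff and 36.6 CPM in grouse at HH21, and 9.32 CPM in muff and 29.8 CPM in grouse at HH29. IRS1 averaged 15.9 CPM in muff and 30.4 CPM in grouse at HH21, and 24.8 CPM in muff and 42.5 CPM in grouse at HH29. A cytochrome P450 2J2 feature and the uncharacterized LOC106145742 were lower in muff at all 3 stages, with log2 fold changes at HH21, HH25 and HH29 of −1.18, −1.1 and −1.26 for the P450 feature and −1.46, −1.6 and −1.31 for LOC106145742. Other genes of this group had smaller changes, such as NFU1, an iron-sulfur cluster protein of mitochondria, at 0.92, 0.82 and 0.69, and PPIL3, a cyclophilin, at −0.83, −0.76 and −0.49. Outside this group, HOXA5 averaged 75 CPM in muff and 67.8 CPM in grouse at HH21, and 58.5 and 59.5 CPM at HH29. VCAM1 averaged 4.03 CPM in muff and 2.55 CPM in grouse at HH21. At HH29 its levels overlapped, with means of 1.36 CPM in muff and 0.728 CPM in grouse. BCO2 averaged 17.6 CPM in muff and 11 CPM in grouse at HH21, and 15.7 and 5.75 CPM at HH29.

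In the authors' deposited table for muff and grouse hindlimb at HH25, 1196 features had an adjusted p under 0.05, 567 higher and 629 lower in muff. Of the 235 features called here, 222 were also under 0.05 in the authors' deposited table and in the same direction. In the authors' deposited table TBX5 had a log2 fold change of 2.63 and PITX1 of −0.18 with an adjusted p of 0.134. The shrinkage of these fold changes is not stated.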

How the data were processed

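Limb buds were dissected in pairs and stranded poly(A) libraries were sequenced, per the labels' protocols. The authors deposited whole-number read counts per feature, 1 file per library. The submitters' processing notes name FastQC, STAR, featureCounts and DESeq2 with no versions. The build and the counting's strand setting were not given in the sources used here, and overlapping antisense genes may share reads. The authors' deposited table holds, per the file headers, a mean normalized signal, log2 fold changes and their errors, a score for each test, and raw and adjusted p-values, on a fold-change scale whose shrinkage the file does not state.

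Here, counts of the libraries of each comparison were fitted in R 4.3.3 with edgeR 4.0.16 (filterByExpr, TMM scaling, glmQLFit and glmQLFTest, Benjamini-Hochberg adjustment over all features tested), with a term for the replicate set (1 and 2 against 3 and 4) beside phenotype. The set is not described in the labels, which also do not say which libraries shared a sequencing lane. Fold changes use a prior count of 0.125, and each SE is the fold change over the root of its F statistic. DESeq2 1.42.0 was an alternative. The fit was tested on simulated counts. Of 21379 features, 20879 carry a name in the authors' deposited table, and 10871 of 11714 distinct symbols are in RefSeq's gene table (bColLiv1.pat.W.v2). That table's gene order and chromosomes gave the neighbours of TBX5 and PITX1 and the Z-linked features, and no sequence was used. Libraries of both limbs with 1 phenotype and number were taken as pairs, from their correlated deviations and not from the labels, and the interaction is also given with them as a block.

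The genes named are TBX5, TBX4 and PITX1, the 12 largest rises and 12 largest falls among called features with a symbol and groups that do not overlap, called members of the gene lists, up to 3 members of lowest p of a list without a call, features called in the interaction or at all 3 stages, and limb-biased features called here. A few genes outside this rule were named after their values were seen, as examples: HOXC11, HOXA6, IRX1, SALL1, TAGLN3, SIM1, GFRA4, COL2A1, SPP1, SOX10, EDNRB, TBX3, RBM19, CXCL14, PMEL, TRPM6, LOC102089131, the interaction calls of the block, endothelin B receptor and the features with a protein name. The members and lists were chosen with earlier results of these data known. Some items are not reported here.

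Depth was 11693220 to 15222075 counts per library, so a feature near 1 CPM rests on little over 10 counts. Replicate libraries of a group differed beyond sampling noise. The other samples of the series, chicken included, were not used.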

Additional observations from a re-analysis of the deposited data

Results flagged for a closer look

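The muff minus grouse difference was unequal in the limbs for the main TBX5 feature (interaction 4.43 log2 units, adjusted p 9.41e-10, edgeR), for TBX5 XM_005500158.2 (4.78, adjusted p 0.00342) and for PITX1 (−1.17, adjusted p 0.009).

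Of 74 groups of 4 libraries tested, 5 had 1 library far from the other 3 (chance gives about 1 in 20). TBX5 was 2.03 CPM in grouse hindlimb replicate 3 and VCAM1 was 2.0 CPM in grouse hindlimb replicate 4. The cytochrome P450 2J2 feature called at all 3 stages was 7.5 CPM in muff hindlimb replicate 3, and FABP7 was 42.5 CPM in muff hindlimb replicate 4. The mean log2 CPM of Z-linked features was 4.56 in muff hindlimb replicate 1. TBX5, VCAM1 and the P450 feature kept their call between muff and grouse in all 8 fits that left out 1 library, and FABP7 lost it in 6 of 8.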

How the results depend on the processing

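The call count of muff minus grouse hindlimb at HH25 was 235, and it was 74 with no term for the replicate set, 98 with the replicate block, 451 with DESeq2, 368 with the Z covariate, 106 without muff replicate 1 and grouse replicate 4, and 52 to 301 when 1 library was left out. All 74 of the fit with no term for the replicate set were among the 235, as were 88 of the 98, 219 of the 451 and 234 of the 368. In forelimb at HH25 the count was 334, and 77, 124 and 583 with no term for the replicate set, with the replicate block and with the Z covariate, 212 without muff replicate 1 and grouse replicate 4, and 104 to 306 when 1 library was left out. At HH21 it was 128, and 15, 7, 674 and 8 with no term for the replicate set, the replicate block, DESeq2 and the Z covariate, and 3 to 187 with 1 library left out. At HH29 it was 279, and 775 with DESeq2 and 18 to 353 with 1 library left out. The limb interaction called 3, 10 with the replicate block that pairs the limbs, 1 without the 2 high Z libraries of each limb, and 2 to 3 with 1 left out. The cause of these shifts was not tested. The Z-library exclusion was chosen after seeing the data.

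Muff and grouse samples with the same number share that number and the replicate set it falls in. Their deviations from the group means correlated at 0.12, 0.37, 0.17 and 0.06 between muff and grouse, and not every sample correlated best with its own number. With the replicate set taken out, these correlations were 0.04, 0.04, −0.16 and −0.16. Each set holds a pair of libraries per group, so values within a set are equal by construction and are not separate checks. Of the 36 called features named, 10 kept direction and call under every alternative, and of their 570 values, 198 lost the call and 1 reversed, ECI2 (XM_005506701.1) at −0.15 when features were summed by gene name. TBX5 kept its call under every alternative (adjusted p up to 0.000635). Features near 1 CPM are limited by depth.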

Other observations

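The called features held 1 Z-linked feature, PTGR1, of 475 Z-linked features tested (0.211%), against 1.78% of all features. Muff replicate 1 and grouse replicate 4 had a high Z-linked mean, which widens the spread of Z-linked features within each group. A call is then harder to reach, so these shares do not compare how far Z-linked and other features differ. Adding the Z-linked mean of each library to the fit gave 368 called features.

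MASP1, GLT1D1, RNASEH2B and cytochrome P450 2J2 had 2 called features each. Features that kept their call in all 8 fits that left out 1 library, outside the largest changes, included CD109 (1.05), ANXA4 (0.64) and NFU1 (0.82), higher in muff, and ANXA6 (−0.99), COL17A1 (−0.95), SCARB2 (−0.58) and PRDX6 (−0.55), lower in muff, as log2 fold changes. ANXA4 and ANXA6 are annexins, which bind membrane phospholipids with calcium, and they changed in opposite directions. COL17A1 is the collagen of hemidesmosomes in epithelium, SCARB2 is a lysosomal membrane protein and PRDX6 is a peroxidase. These genes were picked after their values were seen.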
